A study of Mus musculus with 9 samples.

Results

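The proteasome genes described here are the mouse genes named Psma, Psmb, Psmc, Psmd, Psme, Psmf or Psmg with a number, which encode the subunits, activators, inhibitor and assembly chaperones of the proteasome. They were taken from the count table by that pattern, with 3 matching pseudogenes left out, and numbered 50 of the table's 20732 genes. Of these, 48 were placed in functional classes. The other 2 matched the pattern but were kept apart. They were Psmc3ip, a meiotic recombination factor named for a binding partner, and Psme2b, a near copy of Psme2. A filter on low counts passed 48 of the 50 genes, and Psma8 and Psmb11 were not tested.

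The proteasome degrades proteins tagged with ubiquitin. Its barrel, the 20S core, is built from rings of alpha subunits, which form the gate, and rings of beta subunits, of which Psmb5, Psmb6 and Psmb7 carry the constitutive peptidase sites. In cells of the immune system these can be replaced by Psmb8, Psmb9 and Psmb10, which form the immunoproteasome, and the activator Psme1-Psme2 (PA28) can cap the core in place of the 19S particle. The 19S particle recognises ubiquitin through receptors such as Psmd4, and unfolds the substrate with the ATPases of its base. Cells with an immunoproteasome cut proteins into more peptides that fit MHC class I molecules.

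Libraries held RNA of ILC2s (group 2 innate lymphoid cells), lymphocytes settled in tissues that answer the alarmin IL-33 with type 2 cytokines. They were sorted from pancreas of C57BL6/J mice as live cells that were CD45+ and KLRG1+ and lacked CD3, B220 and lineage markers. The comparison asks how these genes differ between 4 libraries of mice given PBS and 5 libraries of mice given 200 ng of IL-33, on days 0 and 1, with harvest on day 5. The labels name no transgene, and the sources used here do not give age or sex. The series' text gives 5 PBS and 4 IL-33 mice, whereas sample titles and table columns give 4 and 5, and the titles were followed. Il5 and Il13, type 2 cytokine genes, were higher in every library titled IL-33 than in every other library. It is not stated whether libraries are separate mice, and p-values therefore describe only how these 9 libraries vary, which may be technical.

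Total counts were 14216976 to 21020023 per library. Values are CPM, counts scaled to a common library total and then by TMM, a method that corrects for a few genes taking many reads. The scaling factor was 0.532 in PBS replicate 4, where pancreatic acinar genes took 37.9% of counts, and 0.990 to 1.17 in the others, where they took 0.122% to 10.98%. The ILC2 regulator Gata3 stood at 4518 ± 579 CPM in PBS (SD, n = 4) and 4030 ± 1586 CPM in IL-33 (SD, n = 5). Of 10 ILC2 genes, 3 were called higher and 3 lower by edgeR, which called 13.7% of all tested genes higher and 11.6% lower. Il5, Il13 and Klrg1 rose, from 356.1 to 1675, 98.09 to 1733 and 709 to 1429 CPM, and Il7r, Icos and Il2ra fell, from 652.4 to 269.1, 613.5 to 216.5 and 529.4 to 360.7 CPM. Of the CD3 genes, whose protein the gate excluded, Cd3e stood at 2.59 and 5.33 CPM but Cd3g at 255 and 281 CPM. Proliferation genes took 0.00348% to 0.00736% of counts in PBS and 0.0908% to 0.149% in IL-33, with 5 of 5 called higher, and erythroid genes 0.0142% to 0.0343% and 0.0424% to 0.365%, with 4 of 4 tested called higher. Cpa3, the only 1 of 4 listed mast cell genes found in the count table, rose from 28.95 to 156.9 CPM. Of the tested genes of other cell types, 1 B cell and 1 myeloid gene were called higher and 1 endothelial and 1 fibroblast gene lower. These values moved with the groups, and their part in the results below was not tested.

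Of the 48 tested proteasome genes, 21 rose after IL-33 and 0 fell, by edgeR's quasi-likelihood test at an adjusted p threshold of 0.05. Over all 14405 genes tested, 13.7% rose and 11.6% fell. Without adjustment, 29 of the 48 had a p under that threshold with a higher value and 2 with a lower value. DESeq2 and limma-trend each called 2 lower, and limma voom called 1, where they called 16.1%, 13.4% and 14.3% of all tested genes lower. Among the 10380 genes with at least 5 CPM in at least 4 libraries, of which 16.4% rose and 17.1% fell, edgeR called 22 proteasome genes higher and 2 lower. The median log2 change was 0.48 over the 48 genes and -0.05 over all genes tested. The values of the PBS and IL-33 libraries did not overlap, with IL-33 above, for 21 of the 48 genes, against 15.3% of all tested genes, and for none was IL-33 wholly below, against 10.8%. In bulk libraries, a change in the cells that carry an RNA and a change in RNA per cell cannot be told apart.

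The change was seen in each IL-33 library, and in the reported fit it differed by class. The median log2 distance of the tested genes from the PBS mean lay between 0.40 and 0.59 in the 5 IL-33 libraries, and between -0.10 and 0.12 in the 4 PBS libraries. Of the constitutive 20S core genes tested, 12 of 14 rose (85.7%), with a median log2 change of 0.72. Of the 19S genes, 5 of 17 rose (29.4%), with a median of 0.41, and all 17 had a fitted value above 0, although Psmc4, Psmc5, Psmd4 or Psmd11 lay below 0 under some alternatives. Of the 5 immunoproteasome genes 2 rose, with a median of -0.06, and of 7 assembly genes 2 rose, with a median of 0.21. Over all genes tested, 13.7% rose, with a median of -0.05. Differences between classes were not tested. Removing a trend with gene length and GC content shifted these counts, to 3 alpha, 4 beta, 4 base, 5 lid and 2 assembly genes higher, and 1 immunoproteasome gene higher and 3 lower. With that trend removed, 10.64% of all tested genes were called higher and 10.55% lower. The class medians then lay closer together, at 0.35 for alpha, 0.44 for beta, 0.37 for base and 0.48 for lid genes. With scaling by library size alone, 12 of the 48 were called higher, against 9.25% of all tested genes. These were 1 alpha, 4 beta, 1 immunoproteasome, 1 base, 4 lid and 1 assembly gene. With replicate number as a block, 10 were called higher, against 5.49% of all tested genes, among them 3 alpha, 2 beta, 1 base and 2 lid genes. The order of the classes thus varied between fits. Without the 3 IL-33 libraries with the most beta-globin reads, 10 were called higher, against 4.75% of all tested genes.

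**Figure D1:**
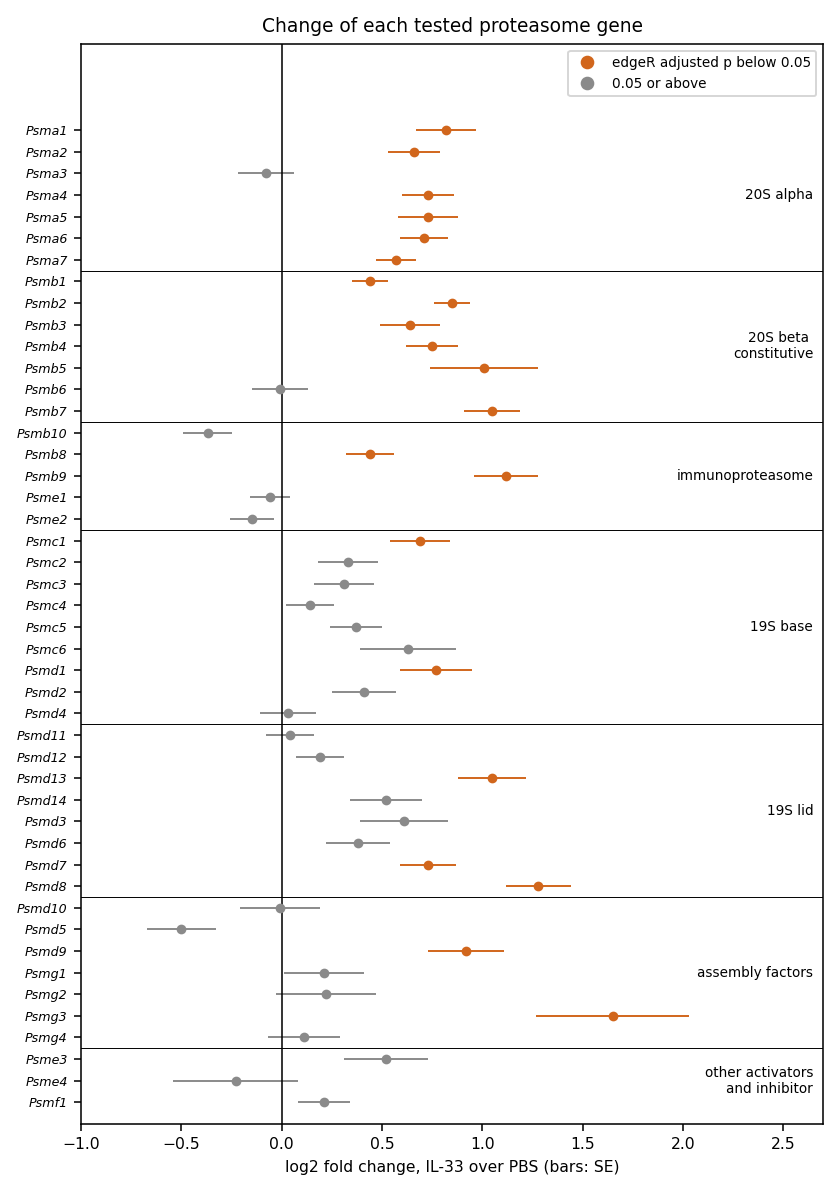
Log2 change of IL-33 over PBS for each tested proteasome gene placed in a class, with bars for the SE of the edgeR fit. Orange points are genes called at an adjusted p of 0.05, and Psmc3ip and Psme2b are not drawn. The constitutive core genes sit mostly between 0.44 and 1.05, while the immunoproteasome genes spread from -0.37 to 1.12.

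On the linear CPM scale, the sums over the core and lid genes stood apart between the groups. The 7 constitutive beta genes summed to 1492 ± 102 CPM in PBS (SD, n = 4) and 2147 ± 128 CPM in IL-33 (SD, n = 5), a ratio of 1.44. Lid genes went from 758.7 ± 42.3 to 1180 ± 19.2 CPM, the highest ratio of the classes at 1.56, and alpha genes from 1124 ± 97.2 to 1633 ± 97.1 CPM, a ratio of 1.45. In these 3 classes every IL-33 library lay above every PBS library. Base genes had a ratio of 1.27, immunoproteasome genes 1.09 and assembly genes 1.04, and in each of these the groups overlapped. Sums are weighted to abundant genes and were not tested. The sum over all genes placed in a class was 6476 ± 474 CPM in PBS and 8577 ± 374 CPM in IL-33, a ratio of 1.33. With library size alone, the sum in PBS replicate 4 was 3202 CPM, against 7130 to 7689 CPM in the other PBS libraries, and the ratio was 1.43.

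**Figure D2:**
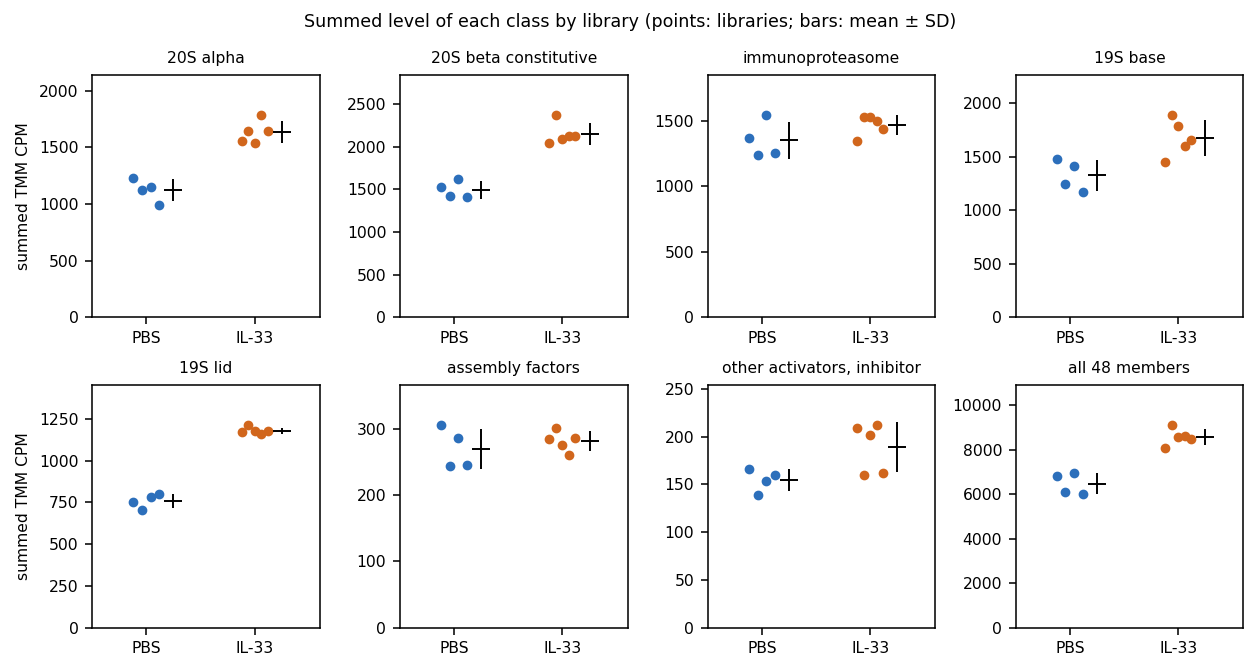
Summed TMM-scaled CPM of each class in every library, with the group mean and SD. The alpha, beta and lid sums of the 5 IL-33 libraries lie above those of all 4 PBS libraries.

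Of the 7 tested alpha-ring genes, 6 rose, by log2 0.57 to 0.82, where 13.7% of all tested genes rose. Psma7 (chr2:180036374-180042433, minus strand, GRCm38) and Psma4 (chr9:54950790-54958030, plus strand), both structural subunits of the outer rings, had the smallest adjusted p. Psma7 stood at 364.2, 333.2, 358.1 and 329.8 CPM in PBS and at 497.2, 595.7, 459.3, 526.5 and 485.3 CPM in IL-33. Every IL-33 library was above every PBS library. The mean went from 346.3 ± 17.4 to 512.8 ± 52.2 CPM, a rise of log2 0.57 ± 0.10 (SE, edgeR adjusted p = 0.00303). Psma4 stood at 88.26, 107.5, 96.67 and 72.04 CPM in PBS and at 147.1, 151.0, 146.9, 169.1 and 144.2 CPM in IL-33. Again the groups were apart, with IL-33 replicate 4 highest. Its log2 change was 0.73 ± 0.13 (edgeR adjusted p = 0.00309).

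Psma1 rose by log2 0.82 ± 0.15 (edgeR adjusted p = 0.00335), from 99.47 ± 17.8 to 176.2 ± 21.1 CPM, the largest change of the ring. Psma2, Psma5 and Psma6 rose by log2 0.66, 0.73 and 0.71, with edgeR adjusted p of 0.00483, 0.00693 and 0.00317. With the length and GC trend removed, Psma5, Psma6 and Psma7 had log2 values of 0.35, 0.33 and 0.28 and were not called (edgeR adjusted p = 0.214, 0.0965 and 0.186). Psma3 (chr12:70974621-70996347, plus strand), the remaining tested alpha gene, was not called. It stood at 277.8, 249.3, 212.6 and 181.8 CPM in PBS and at 214.4, 223.2, 181.3, 251.7 and 221.6 CPM in IL-33. The groups overlapped through most of their range, and its log2 value was -0.08 ± 0.14 (edgeR adjusted p = 0.73). The germline alpha subunit gene Psma8 had 7 counts in IL-33 replicate 2 and 0 in the other 8 libraries, where 3 counts, the limit that a count of 0 allows, equal 0.133 to 0.286 CPM.

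The constitutive beta-ring genes followed the same pattern, with 6 of 7 higher by log2 0.44 to 1.05, against 13.7% of all tested genes. Psmb2 (chr4:126677630-126709714, plus strand), a non-catalytic subunit, stood at 158.3, 146.3, 174.0 and 159.1 CPM in PBS and at 271.7, 313.7, 277.5, 283.2 and 286.1 CPM in IL-33. The groups were far apart relative to their spread. The mean went from 159.4 ± 11.3 to 286.4 ± 16.2 CPM, a rise of log2 0.85 ± 0.09 (edgeR adjusted p = 0.000281). Psmb7 (chr2:38588036-38644087, minus strand), which carries the trypsin-like site, stood at 76.43, 73.84, 92.42 and 87.5 CPM in PBS and at 182.4, 175.2, 130.8, 169.8 and 196.3 CPM in IL-33. The lowest IL-33 library, replicate 3, was still above all PBS libraries. Its log2 change was 1.05 ± 0.14 (edgeR adjusted p = 0.000745). In the annotation 405 exon bases of Psmb7 overlap Nek6 on the other strand, and no source states that counting used strand.

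Psmb1, Psmb3 and Psmb4, which have no active site, rose by log2 0.44, 0.64 and 0.75 (edgeR adjusted p = 0.00811, 0.0124 and 0.00327). With the length and GC trend removed, Psmb3 was at log2 0.41 and Psmb5, described next, at 0.49, and neither was called (edgeR adjusted p = 0.0835 and 0.0532). Psmb5 (chr14:54614119-54618022, minus strand), which carries the chymotrypsin-like site, stood at 38.54, 41.29, 70.99 and 89.6 CPM in PBS and at 107.7, 152.2, 93.19, 131.7 and 118.9 CPM in IL-33. The PBS values fell in a low and a high pair, and the lowest IL-33 value was only just above the highest PBS value. The log2 change was 1.01 ± 0.27 (edgeR adjusted p = 0.0223). That call was lost without PBS replicate 1 (log2 0.85, adjusted p = 0.0537) or 2 (log2 0.87, adjusted p = 0.0626), and without IL-33 replicate 2 (log2 0.91, adjusted p = 0.0529) or 4 (log2 0.95, adjusted p = 0.0522), in edgeR.

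Psmb6 (chr11:70525367-70527858, plus strand), which carries the caspase-like site, was the exception in the beta ring. It stood at 485.3, 451.1, 403.4 and 325.5 CPM in PBS and at 365.5, 477.1, 464.2, 379.1 and 375.4 CPM in IL-33. The groups overlapped, and the log2 value was -0.01 ± 0.14 (edgeR adjusted p = 0.953). Reads of its pseudogenes Psmb6-ps and Psmb6-ps2 may be shared with it. Psmb11, the beta subunit gene of thymic epithelium, had 25, 8 and 3 counts in PBS replicates 2 and 4 and IL-33 replicate 1, and 0 elsewhere.

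**Figure D3:**
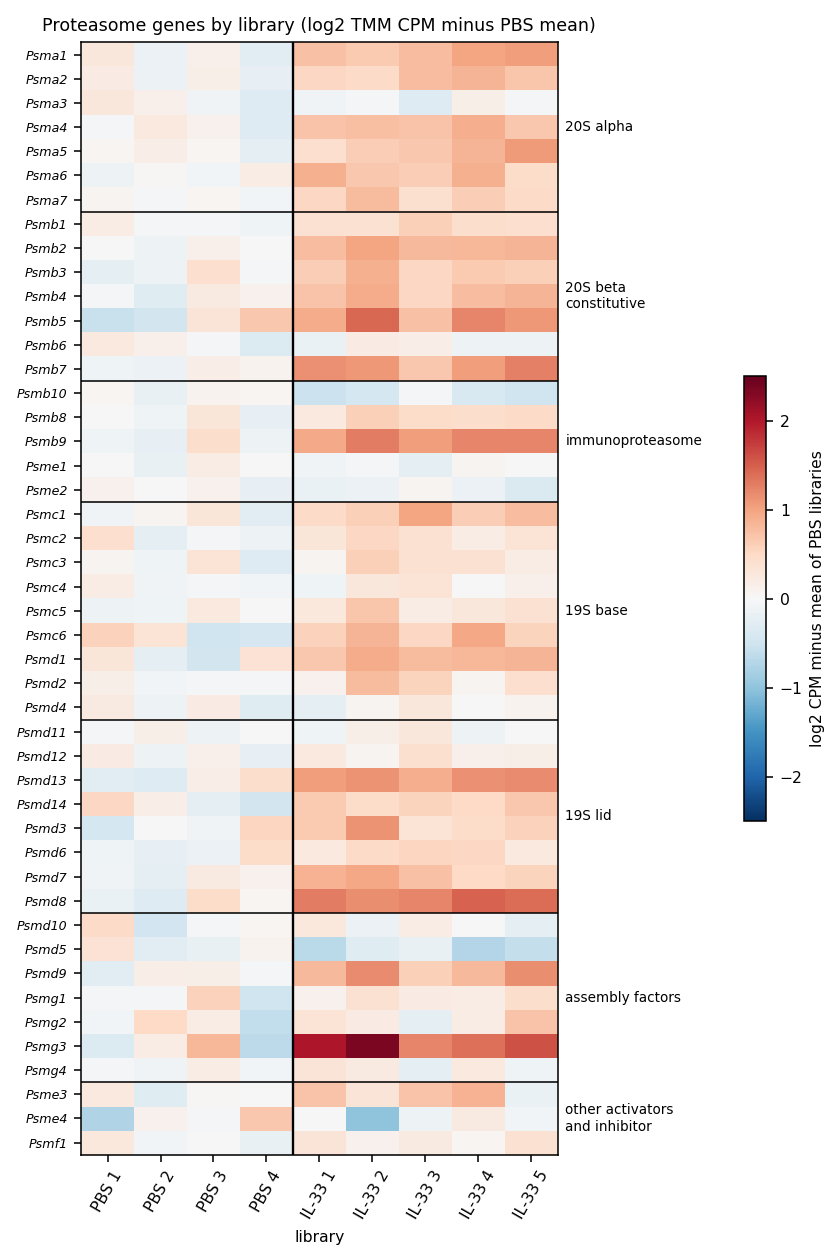
TMM-scaled CPM of each tested proteasome gene placed in a class, as log2 distance from its PBS mean, with genes in rows by class and libraries in columns. Most core rows are above 0 in all 5 IL-33 libraries, while Psma3, Psmb6, Psme1 and Psme2 are not.

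The immunoproteasome genes did not move as a set. Psmb9 and Psmb8 rose, while Psmb10, Psme1 and Psme2 were not called in either direction. To set the inducible catalytic genes beside their constitutive counterparts, 200 bases around the start of Psmb8, Psmb9, Psmb5 and Psmb6 are given from RefSeq on GRCm38.p6, from 150 bases before the start. They were searched on both strands for cores of elements known from the literature on these genes, and capitals mark the match found. The search used TTCNNNGAA (the GAS element), a pair of GAAA with NN between (the interferon-stimulated response element bound by IRF factors), TGACNNNGC (the antioxidant response element bound by NRF1 and NRF2 with small MAF proteins) and CCAAT.
Psmb8: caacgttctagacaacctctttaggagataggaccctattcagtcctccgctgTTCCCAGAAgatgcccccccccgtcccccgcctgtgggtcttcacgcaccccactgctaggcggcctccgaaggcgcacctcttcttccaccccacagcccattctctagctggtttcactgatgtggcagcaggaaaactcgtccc
Psmb9: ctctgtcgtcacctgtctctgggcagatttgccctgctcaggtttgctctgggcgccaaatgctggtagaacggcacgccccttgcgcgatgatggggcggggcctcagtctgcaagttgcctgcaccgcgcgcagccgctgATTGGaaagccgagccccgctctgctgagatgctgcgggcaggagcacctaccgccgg
Psmb5: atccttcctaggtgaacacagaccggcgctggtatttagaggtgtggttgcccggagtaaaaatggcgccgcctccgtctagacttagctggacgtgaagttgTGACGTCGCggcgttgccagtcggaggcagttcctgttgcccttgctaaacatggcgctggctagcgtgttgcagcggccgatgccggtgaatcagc
Psmb6: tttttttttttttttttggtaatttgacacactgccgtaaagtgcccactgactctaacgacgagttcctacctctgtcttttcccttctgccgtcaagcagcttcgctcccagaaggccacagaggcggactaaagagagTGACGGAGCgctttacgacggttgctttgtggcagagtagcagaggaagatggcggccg

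These windows lie at chr17:34198045-34198244 (plus strand) for Psmb8, chr17:34187281-34187480 (minus) for Psmb9, chr14:54617946-54618145 (minus) for Psmb5 and chr11:70525207-70525406 (plus) for Psmb6, and each is printed along its gene's strand. The Psmb8 and Psmb9 starts lie 474 and 434 bases downstream of the gene starts in GENCODE M21. Psmb8 holds TTCCCAGAA, which begins at position -97, and Psmb9 holds a CCAAT on the opposite strand (printed as ATTGG) at -8. Psmb5 holds TGACGTCGC at -47 and Psmb6 holds TGACGGAGC at -9, so the core is present in the gene that rose and in the gene that was not called. No match overlapped another.

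The same motifs were counted in windows of 300 bases, from 250 before to 50 after the start, available for 42 of the 50 genes. TGACNNNGC was present in 6 of 42 (14.3%), against 13.99% of 27025 genes with a window, TTCNNNGAA in 3 (7.14%) against 9.55%, and CCAAT in 15 (35.7%) against 41.1%. The GAAA pair was present in 5 (11.9%, Psmb3, Psmd4, Psmd9, Psme1 and Psmg4) against 3.99%. These shares are descriptions of letters in a window and were not tested.

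Psmb9 (chr17:34181987-34187764, minus strand), the inducible counterpart of Psmb6, stood at 66.22, 62.62, 97.84 and 65.55 CPM in PBS and at 138.1, 174.3, 147.6, 167.9 and 167.7 CPM in IL-33. PBS replicate 3 was the highest of its group, and all IL-33 libraries were above it. The mean went from 73.06 ± 16.6 to 159.1 ± 15.5 CPM, a rise of log2 1.12 ± 0.16 (edgeR adjusted p = 0.00101). It was called higher in all 20 alternative fits. Psmb9 shares 212 exon bases (5.79% of its own) with Tap1 on the opposite strand. Tap1, which pumps peptides into the endoplasmic reticulum, rose by log2 1.04 ± 0.17, from 66.97 ± 13.7 to 138.1 ± 21.4 CPM (edgeR adjusted p = 0.00253).

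Psmb8 (chr17:34197721-34201454, plus strand), the inducible counterpart of Psmb5, stood at 382.1, 353.6, 471.1 and 329.7 CPM in PBS and at 450.4, 576.9, 520.5, 518.1 and 531.0 CPM in IL-33. The groups overlapped, since PBS replicate 3 was above IL-33 replicate 1. The log2 change was 0.44 ± 0.12 (edgeR adjusted p = 0.0284), and the call was lost without any one of PBS replicates 1, 2 and 4 (adjusted p = 0.0647, 0.0795 and 0.0714) or IL-33 replicates 2, 4 and 5 (adjusted p = 0.0618, 0.0632 and 0.0613), and with scaling by library size alone (adjusted p = 0.236). The Psmb8 call was also lost with replicate number as a block (log2 0.43, edgeR adjusted p = 0.131). The same held with the length and GC trend removed (log2 0.31, edgeR adjusted p = 0.129) and without the globin libraries (log2 0.46, edgeR adjusted p = 0.139). It was kept in 10 of the 20 alternative fits. The antisense gene Gm20496 overlaps 498 exon bases of Psmb8 (14.7%) and had itself 0 to 3 counts per library.

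Psmb10 (chr8:105935735-105938444, minus strand), the inducible counterpart of Psmb7, stood at 269.4, 230.1, 277.6 and 267.9 CPM in PBS and at 178.6, 191.8, 255.2, 201.3 and 185.7 CPM in IL-33. Only IL-33 replicate 3 reached into the PBS range. Its log2 value was -0.37 ± 0.12 and missed the threshold (edgeR adjusted p = 0.0542), and DESeq2 (adjusted p = 0.0101) and limma voom (adjusted p = 0.035) called it lower. Without IL-33 replicate 3 it was called lower at log2 -0.47 (edgeR adjusted p = 0.00988).

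Psme1 (chr14:55578123-55581529, plus strand) and Psme2 (chr14:55587441-55591113, minus strand) encode both subunits of PA28. Psme1 stood at 287.2, 255.0, 329.8 and 293.5 CPM in PBS and at 274.2, 281.8, 248.1, 304.9 and 290.3 CPM in IL-33. Psme2 stood at 366.0, 337.7, 367.2 and 294.3 CPM in PBS and at 303.8, 306.5, 355.1, 307.7 and 265.7 CPM in IL-33. Both overlapped between groups, with log2 values of -0.06 ± 0.10 (edgeR adjusted p = 0.716) and -0.15 ± 0.11 (edgeR adjusted p = 0.356). With the length and GC trend removed, edgeR called both lower, at log2 -0.42 (adjusted p = 0.0468) and -0.53 (adjusted p = 0.0231). Psme2b, the near copy, had a log2 value of -0.21 (edgeR adjusted p = 0.303), and reads may be shared between it and Psme2.

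Ratios of counts of each inducible gene to its constitutive counterpart do not depend on library scaling. They differed in opposite directions for Psmb9 to Psmb6 and for Psmb10 to Psmb7. The Psmb9 to Psmb6 ratio was 0.1365, 0.1388, 0.2426 and 0.2014 in PBS and 0.3777, 0.3654, 0.3179, 0.4428 and 0.4467 in IL-33. All IL-33 libraries were higher. The mean log2 ratio was 1.15 higher, a 2.22-fold difference (exact permutation test over the 9 libraries, two-sided p = 0.0159, the smallest it can give; 0.0238 adjusted over 3 ratios). The Psmb10 to Psmb7 ratio was 3.526, 3.117, 3.003 and 3.062 in PBS and 0.9788, 1.095, 1.951, 1.185 and 0.946 in IL-33. All IL-33 libraries were lower, with replicate 3 nearest to PBS. The log2 difference was -1.42, which leaves 0.374 of the PBS ratio (exact permutation p = 0.0159, adjusted 0.0238). In the edgeR fit, the constitutive Psmb7 rose by log2 1.05, while Psmb10, at -0.37, was not called. In the other pair the inducible Psmb9 rose by log2 1.12, while Psmb6, at -0.01, was not called.

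The Psmb8 to Psmb5 ratio was 9.913, 8.564, 6.636 and 3.679 in PBS and 4.183, 3.79, 5.585, 3.935 and 4.464 in IL-33. PBS replicate 4 was the lowest of all 9 libraries, and the other 3 PBS libraries were above every IL-33 library. The log2 difference was -0.63 (exact permutation p = 0.111, adjusted 0.111). Without PBS replicate 4, the only PBS library that overlapped IL-33, it was -0.93 (exact permutation, adjusted p = 0.0357). That is the smallest p the test can give with 1 PBS library left out, and leaving out the overlapping library fixed it. With counts taken per kilobase of the principal transcript, the mean ratios in PBS and IL-33 were 3.98 and 2.43 for Psmb8 to Psmb5, 0.106 and 0.230 for Psmb9 to Psmb6, and 2.81 and 1.09 for Psmb10 to Psmb7. Per kilobase of all annotated exons of the gene, they were 1.914 and 1.168, 0.09197 and 0.1995, and 6.374 and 2.47, in the same order. The level of these ratios therefore depended on the length used.

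**Figure D4:**
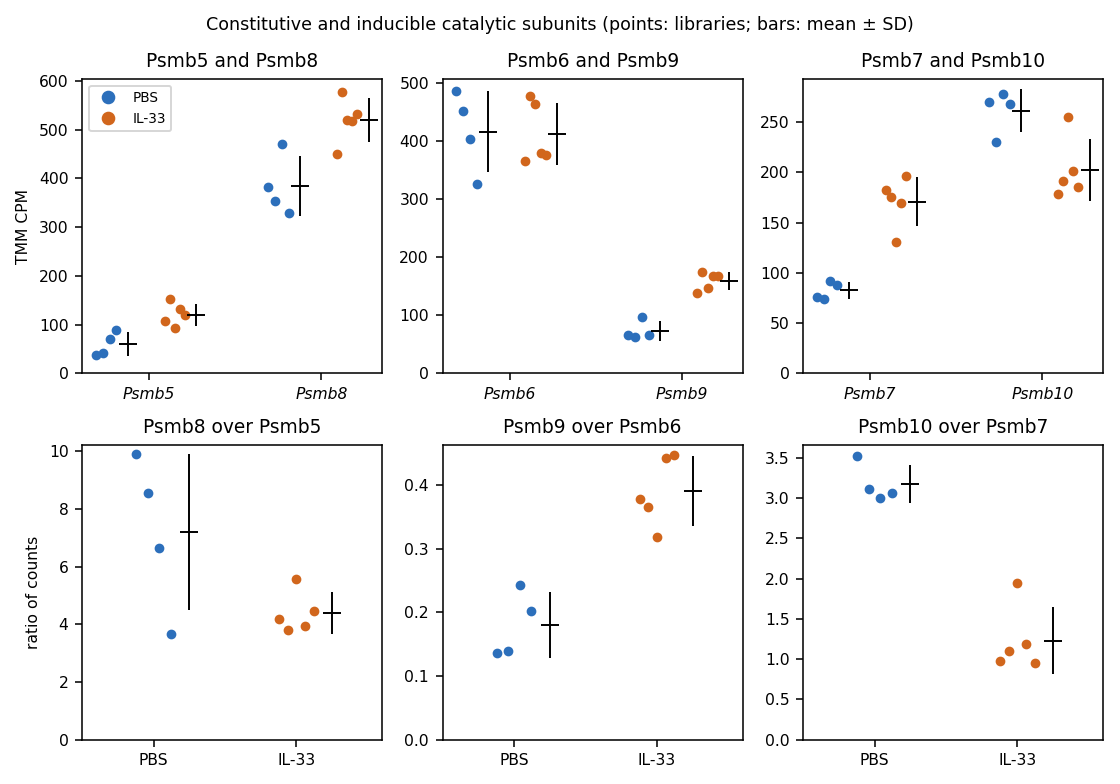
TMM-scaled CPM of each constitutive and inducible catalytic gene (upper row) and the ratio of their counts (lower row) in every library, with group mean and SD, on linear axes. Psmb9 to Psmb6 is higher in all 5 IL-33 libraries, Psmb10 to Psmb7 is lower in all 5, and Psmb8 to Psmb5 overlaps between groups through PBS replicate 4.

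In the base of the 19S particle, 2 of 9 genes rose, where 13.7% of all tested genes rose. The other 7 had fitted log2 values from 0.03 to 0.63. Psmc1 (chr12:100110154-100123405, plus strand), an ATPase of the unfolding ring, stood at 106.9, 119.6, 140.3 and 93.7 CPM in PBS and at 157.7, 172.5, 226.8, 174.3 and 195.5 CPM in IL-33. The groups did not overlap. Its log2 change was 0.69 ± 0.15 (edgeR adjusted p = 0.00919), but it was not called with the length and GC trend removed (log2 0.40), with library size alone (0.78) or without the globin libraries (0.69), with edgeR adjusted p of 0.0995, 0.113 and 0.0706. Psmd1 (chr1:86064387-86139151, plus strand), a scaffold that holds ubiquitin receptors, stood at 67.13, 46.47, 39.77 and 70.13 CPM in PBS and at 86.57, 102.9, 94.35, 96.28 and 97.42 CPM in IL-33. All IL-33 libraries were above PBS and close to each other. Its log2 change was 0.77 ± 0.18 (edgeR adjusted p = 0.0117). It was not called without the globin libraries (log2 0.80, edgeR adjusted p = 0.114) or with replicate number as a block (log2 0.80, edgeR adjusted p = 0.0698). Its exons share 252 bases with Htr2b on the other strand and 301 with Gm21972 on the same strand.

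The ubiquitin receptor gene Psmd4 (chr3:95032694-95042614, minus strand) stood at 297.5, 234.6, 293.4 and 207.6 CPM in PBS and at 219.8, 266.1, 308.8, 256.1 and 271.0 CPM in IL-33. The groups overlapped, with a log2 value of 0.03 ± 0.14 (edgeR adjusted p = 0.885). The other 5 ATPase genes and the scaffold gene Psmd2 were not called. Their log2 values were 0.33 for Psmc2, 0.31 for Psmc3, 0.14 for Psmc4, 0.37 for Psmc5, 0.63 for Psmc6 and 0.41 for Psmd2, with edgeR adjusted p from 0.0722 to 0.444. Without PBS replicate 1, Psmc2 and Psmc6 were called higher at log2 0.49 and 0.84 (edgeR adjusted p = 0.0189 and 0.032), as was Psmc5 without PBS replicate 3 at 0.45 (edgeR adjusted p = 0.0436).

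Of the 8 lid genes 3 rose, against 13.7% of all tested genes. Psmd8 (chr7:29174188-29180701, minus strand), a structural lid subunit, stood at 95.16, 85.11, 146.2 and 110.3 CPM in PBS and at 260.7, 237.7, 250.5, 296.5 and 281.0 CPM in IL-33. The lowest IL-33 library was well above the highest PBS library, replicate 3. The mean went from 109.2 ± 26.8 to 265.3 ± 23.6 CPM, a rise of log2 1.28 ± 0.16 (edgeR adjusted p = 0.000621). Psmd13 (chr7:140881968-140898643, plus strand), also structural, stood at 68.1, 65.7, 92.06 and 111.7 CPM in PBS and at 168.8, 180.5, 154.1, 181.8 and 187.1 CPM in IL-33. The groups were apart, and its log2 change was 1.05 ± 0.17 (edgeR adjusted p = 0.00208). Its exons share 342 bases with Sirt3.

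Psmd7, which pairs with the deubiquitinase Psmd14, rose from 87.73 ± 12.8 to 145.2 ± 20.2 CPM, by log2 0.73 (edgeR adjusted p = 0.00554). Psmd14 itself had a log2 value of 0.52 and was not called (edgeR adjusted p = 0.0653). Psmd11 (chr11:80428615-80473248, plus strand) had the lowest value of the lid. It stood at 138.9, 155.6, 128.8 and 141.8 CPM in PBS and at 130.3, 155.2, 172.5, 129.8 and 140.7 CPM in IL-33, which overlapped, with a log2 value of 0.04 ± 0.12 (edgeR adjusted p = 0.812). Psmd3, Psmd6 and Psmd12 had log2 values of 0.61, 0.38 and 0.19 and were not called (edgeR adjusted p = 0.0725, 0.111 and 0.285). For 3 of these genes the call changed with 1 PBS library left out, and also with the method. With all libraries, DESeq2 called Psmd14 higher (adjusted p = 0.0399), and limma voom called Psmd3 and Psmd6 higher (adjusted p = 0.0298 and 0.0424). Psmd14 was called higher without PBS replicate 1 (log2 0.71, edgeR adjusted p = 0.0139), and Psmd3 and Psmd6 without PBS replicate 4 (log2 0.81 and 0.55, edgeR adjusted p = 0.0241 and 0.0123).

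The assembly factors were mixed. Psmd9 and Psmg3 rose, 2 of 7 genes against 13.7% of all tested genes, while Psmd5 had the lowest log2 value of all tested proteasome genes. Psmd9 (chr5:123169413-123250131, plus strand), a chaperone of the base, stood at 14.07, 19.29, 19.05 and 16.7 CPM in PBS and at 30.22, 38.77, 25.76, 30.11 and 38.11 CPM in IL-33. All IL-33 libraries were above PBS, and the log2 change was 0.92 ± 0.19 (edgeR adjusted p = 0.00689). Its call was lost with library size alone (log2 1.04), with replicate number as a block (0.85) and without the globin libraries (0.99). The edgeR adjusted p were 0.0515, 0.0683 and 0.0586. A long noncoding RNA gene, Gm26745, covers 25.5% of the exon bases of Psmd9 on the other strand. Psmg3 (chr5:139823592-139826885, minus strand), a chaperone of the alpha ring, stood at 3.199, 4.641, 7.195 and 2.576 CPM in PBS and at 16.46, 20.72, 9.486, 10.53 and 12.33 CPM in IL-33. The groups did not overlap, although these are low levels, and the log2 change was 1.65 ± 0.38 (edgeR adjusted p = 0.0122). That call was lost with the block (log2 1.75, edgeR adjusted p = 0.0647) and without the globin libraries (log2 1.38, edgeR adjusted p = 0.154).

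Psmd5 (chr2:34849734-34874968, minus strand), another base chaperone, stood at 113.8, 74.08, 78.59 and 95.33 CPM in PBS and at 55.63, 72.37, 78.87, 53.31 and 58.73 CPM in IL-33. IL-33 replicate 3 lay above PBS replicates 2 and 3, and the other 4 IL-33 libraries were below all PBS libraries. The log2 value was -0.50 ± 0.17 and missed the threshold in edgeR (adjusted p = 0.06), while DESeq2 called it lower (adjusted p = 0.0188). Without IL-33 replicate 3, edgeR called it lower at log2 -0.59 (adjusted p = 0.0387). The other 4 assembly genes were not called. Psmg1, Psmg2 and Psmg4, chaperones of the core, had log2 values of 0.21, 0.22 and 0.11, and Psmd10, a base chaperone also called gankyrin, had -0.01.

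None of the other activators and the inhibitor was called by edgeR, DESeq2, limma voom or limma-trend, and 1 of the 3 had an unadjusted edgeR p under 0.05. Psme3, which forms the nuclear activator PA28 gamma, stood at 77.04, 52.8, 66.27 and 65.08 CPM in PBS and at 106.7, 80.68, 106.3, 118.6 and 57.45 CPM in IL-33. Only IL-33 replicate 5 lay within the PBS range. The log2 value was 0.52 ± 0.21 (edgeR adjusted p = 0.103), and without that library it was 0.66 and called (edgeR adjusted p = 0.0255). Psmf1, the inhibitor PI31, went from 62.2 ± 8.45 to 72.01 ± 6.91 CPM (log2 0.21 ± 0.13, edgeR adjusted p = 0.273). Psme4, the activator PA200, went from 27.14 ± 10.5 to 23.13 ± 6.27 CPM (log2 -0.23 ± 0.31, edgeR adjusted p = 0.632).

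Psmc3ip, which is not a proteasome subunit, stood at 4.418, 0, 0.2533 and 1.813 CPM in PBS and at 11.05, 22.38, 6.185, 15.01 and 16.37 CPM in IL-33. Every IL-33 library was above PBS at low levels. Its log2 value of 3.12 ± 1.04 had an edgeR adjusted p of 0.0537, and DESeq2 called it higher (adjusted p = 0.00328). Without PBS replicate 1 it was called at log2 4.47 (edgeR adjusted p = 0.0234). Of its exon bases, 21.2% overlap Mlx.

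Other genes of the same pathway were read beside these. Of 10 tested proteasome genes named outside the pattern, 3 rose and 2 fell, where 13.7% of all tested genes rose and 11.6% fell. Sem1, the smallest lid subunit, stood at 89.78, 94.51, 99.41 and 85.4 CPM in PBS and at 179.9, 179.2, 164.1, 168.6 and 169.1 CPM in IL-33. Its groups were narrow and apart, with a log2 change of 0.90 ± 0.09 (edgeR adjusted p = 0.000209). Pomp, the maturation chaperone of the core, rose by log2 0.70, from 210.1 ± 27.6 to 340.7 ± 19.7 CPM (edgeR adjusted p = 0.00185), and was not called with library size alone (log2 0.79, edgeR adjusted p = 0.0896). Uchl5, a deubiquitinase of the base, rose by log2 0.99 (edgeR adjusted p = 0.00252). Ecpas, an adaptor that holds the core and 19S particle together, and Zfand5, which activates the 26S proteasome, fell by 0.82 and 0.62 on the log2 scale (by edgeR, adjusted p = 0.0117 and 0.0367).

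Of 12 tested genes that regulate proteasome transcription, 4 fell, against 11.6% of all tested genes, and 8 were not called. The median log2 change was -0.53, against -0.05 over all tested genes. Maff, a small MAF partner of NRF factors, fell by 2.05 on the log2 scale, from 66.34 ± 11.3 to 15.98 ± 3.87 CPM (edgeR adjusted p = 0.000212). Ogt, Ngly1 and Ddi2, enzymes that modify, deglycosylate and cleave NRF1, fell by 0.90, 0.73 and 0.78 on the log2 scale (by edgeR, adjusted p = 0.00283, 0.00867 and 0.0192). Nfe2l1, which encodes NRF1, stood at 21.78 ± 12.7 and 17.08 ± 3.23 CPM and was not called (log2 -0.35, edgeR adjusted p = 0.554). With library size alone, Ogt (log2 -0.77) and Ngly1 (log2 -0.57) were not called, and Ngly1 was not with the length and GC trend removed (log2 -0.40, edgeR adjusted p = 0.144).

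Of 14 genes of ubiquitin supply and shuttling, 2 rose and 1 fell, with a median log2 change of 0.02, which is near the shares of all tested genes (13.7% higher and 11.6% lower). Uba1, the main ubiquitin-activating enzyme, rose by log2 0.52 (edgeR adjusted p = 0.0309). Ubqln4, a shuttle, fell by 0.86 on the log2 scale (by edgeR, adjusted p = 0.0086). With library size alone Uba1 and Ubqln4 had log2 values of 0.65 and -0.73 and were not called (edgeR adjusted p = 0.157 and 0.145). The Uba1 call was lost without any one of PBS replicates 1, 2 and 4 (edgeR adjusted p = 0.0582, 0.0734 and 0.0685) or IL-33 replicates 2, 4 and 5 (edgeR adjusted p = 0.0701, 0.0624 and 0.071).

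Of 12 tested genes of MHC class I presentation, downstream of the proteasome, 3 rose (against 13.7% of all tested genes) and 1 fell (against 11.6%), with a median log2 change of 0.31. Beside Tap1, the chaperones Pdia3 and Canx rose by log2 0.73 and 0.56 (edgeR adjusted p = 0.00149 and 0.00975). H2-K1, a heavy chain of the class I molecule, fell by 0.46 on the log2 scale, from 3049 ± 289 to 2223 ± 163 CPM (edgeR adjusted p = 0.00877). With library size alone, Pdia3 and H2-K1 had log2 values of 0.84 and -0.36 and were not called (edgeR adjusted p = 0.0622 and 0.424).

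Of 10 interferon receptors and signalling factors known to control immunoproteasome genes, 8 fell and 1 rose, against 11.6% and 13.7% of all tested genes, with a median log2 change of -0.84 against -0.05. Ifnar1, a chain of the type I interferon receptor, stood at 308.4, 261.8, 257.9 and 226.6 CPM in PBS and at 123.6, 89.59, 160.3, 162.6 and 119.7 CPM in IL-33. All IL-33 libraries were below PBS, and the log2 change was -1.01 (edgeR adjusted p = 0.00346). The transcription factor genes Irf2 and Irf1 fell by 0.87 and 0.78 on the log2 scale (by edgeR, adjusted p = 0.00521 and 0.00731). With library size alone, Ifnar1, Irf1 and Irf2 had log2 values of -0.92, -0.69 and -0.80 and were not called (edgeR adjusted p = 0.0646, 0.164 and 0.114). Irf8, the gene that rose, was picked after its value was seen. It went from 6.764 ± 3.51 to 25.12 ± 11.8 CPM, a rise of log2 1.89 ± 0.48 (edgeR adjusted p = 0.0186).

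**Figure D5:**
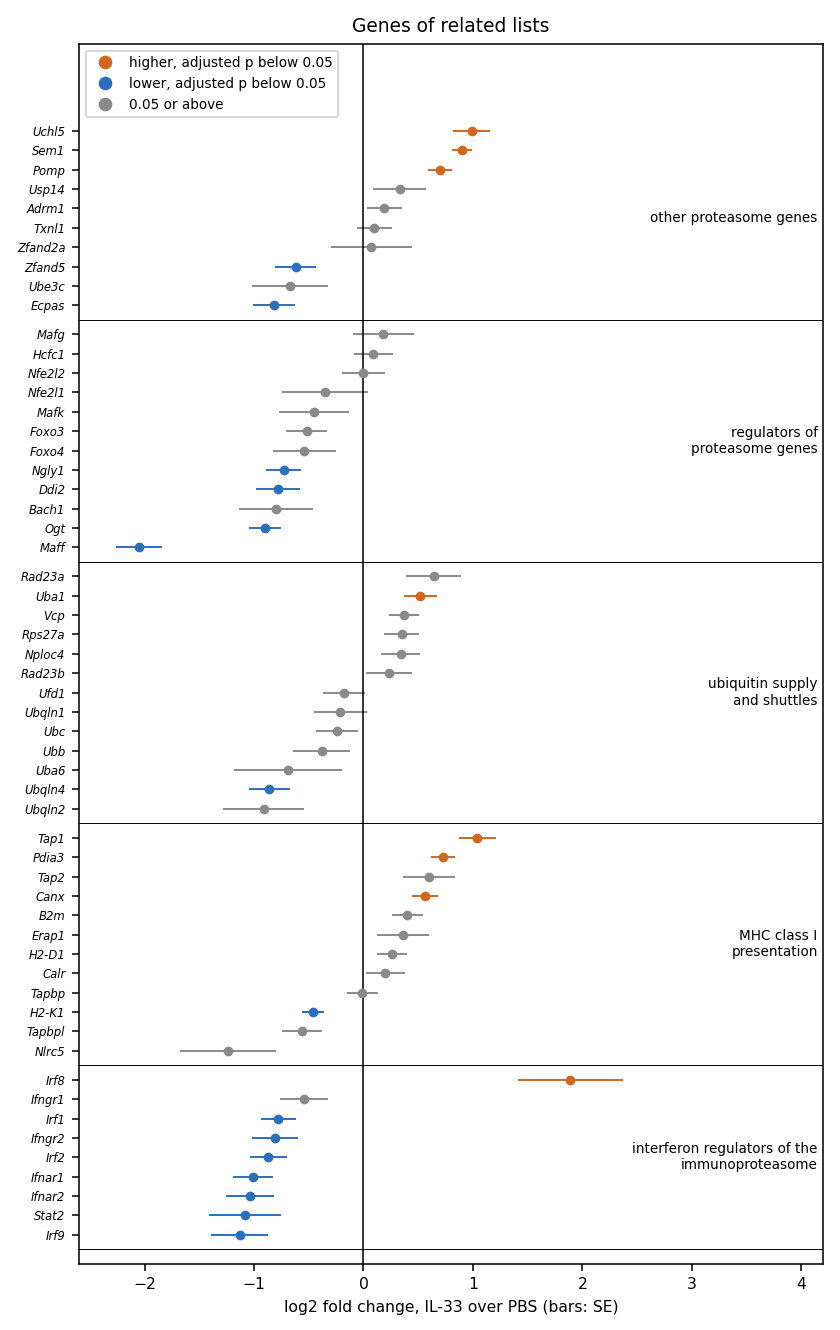
Log2 change of IL-33 over PBS for the reported genes of 5 related lists, with bars for the SE and colour for genes called higher (orange) or lower (blue) at an edgeR adjusted p of 0.05. The regulators and interferon genes lie mostly below 0, with medians of -0.53 and -0.84.

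Among replicates, the coefficient of variation of a tested proteasome gene had a median of 16.5% in PBS and 12.3% in IL-33. Of the 21 genes that rose, 5 were called in all 20 alternative fits: Psmb2, Psmb7, Psmb9, Psmd8 and Psmd13.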

How the data were processed

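The authors deposited counts per gene, as whole numbers, and a normalized signal table, whose values are the counts times 1 factor per library. The submitters' processing notes name STAR 2.7.7a and Salmon 1.6.0, Trimmomatic 0.39, FastQC 0.11.9, Picard and DESeq2, with GRCm38.p6. The sources used here do not give their roles, the annotation or the strand setting. Libraries were made from 5 to 15 ng of RNA and read as pairs of 150 nt, per the labels. Symbols, coordinates and lengths came from GENCODE M21 (20607 of 20732 genes, 99.4%).

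The test on counts was edgeR 4.0.16 (R 4.3.3), a robust quasi-likelihood fit after TMM scaling and filterByExpr at a minimum count of 10, two-sided, with Benjamini-Hochberg adjustment over 14405 genes. The threshold was 0.05, and the biological coefficient of variation 0.56. Ratios were tested by an exact permutation test over the 9 libraries (SciPy 1.17.1). The edgeR step was checked on simulated data. DESeq2 1.42.0 and limma 3.58.1 were alternatives, with other scalings, filters, a length and GC trend, left-out libraries and a replicate block. Counting intervals cover counting error only.

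In each class, library values are given for the 2 genes with the smallest adjusted p and the gene lowest in log2 value. They are also given for all catalytic and immunoproteasome genes, while Psmf1 and Psme4 have mean and SD only. The members and lists were chosen with earlier results of these data known. Some genes of the related lists are counted but not reported here by name.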

Additional observations from a re-analysis of the deposited data

Results flagged for a closer look

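Of 116 groups of values checked, 8 held a library set apart from the rest of its group by most of the group's range, where chance gives about 1 in 20. Among the alpha genes, Psma4 was at 169.1 CPM in IL-33 replicate 4, with the others at 144.2 to 151.0. Psmb9 was at 97.84 CPM in PBS replicate 3, with the others at 62.62 to 66.22. In PBS replicate 1, Psmc4 was at 185.9 CPM, with the others at 153.4 to 157.9, and Psmd2 was at 173.6 CPM, with the others at 148.6 to 152.4. Psmd6 was at 101.5 CPM in PBS replicate 4, with the others at 64.25 to 68.15. Psmg4 was at 24.07 CPM in PBS replicate 3, with the others at 20.01 to 20.67. The ratio of Psmb10 to Psmb7 counts was 1.951 in IL-33 replicate 3, with the others at 0.946 to 1.185. The summed constitutive beta genes were at 2368 CPM in IL-33 replicate 2, with the others at 2040 to 2120.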

How the results depend on the processing

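Over all genes, 3633 were called, against 1976 with scaling by library size alone, 1457 with a replicate block, 1396 without the 3 IL-33 libraries with the most beta-globin, 1786 at a threshold of 0.01, and 2676 to 3695 without each library in turn. Library size alone gave 67.4% of calls as higher, against 54.1%, and moved the median log2 change of all genes from -0.05 to 0.08. Proteasome genes called higher numbered 21, against 12 with library size alone, 10 with the block, 10 without the globin libraries and 19 to 23 without each library. Over all genes tested 13.7% were called higher, against 9.25% with library size alone, 5.49% with the block and 4.75% without the globin libraries. Proteasome genes called lower numbered 0, with the share of all genes tested at 11.6%. With that share in brackets, they numbered 2 with DESeq2 size factors (12.6%), 2 with the filter of 5 CPM in 4 libraries (17.1%) and 2 with DESeq2 (16.1%). They numbered 1 with limma voom (14.3%), 2 with limma-trend (13.4%) and 1 without acinar and endocrine genes (11.9%). With the length and GC trend removed there were 4 (10.55%), Psmb10, Psme1, Psme2 and Psme2b. Without each library there were 0 to 2. Deviations from the group means showed little correlation between same-numbered libraries (-0.0332, -0.206, -0.109 and 0.0954). This cannot show whether they share a batch, since the labels do not say what the numbers mean. The block leaves IL-33 replicate 5 without a partner. In the block the Psmb9 to Psmb6 difference was 1.10 and the Psmb10 to Psmb7 difference -1.34, each with the smallest exact sign-flip p possible, 0.125. Without each library the log2 ratio differences ranged from -0.93 to -0.45 (Psmb8 to Psmb5), 1.03 to 1.31 (Psmb9 to Psmb6) and -1.60 to -1.34 (Psmb10 to Psmb7). Without PBS replicate 1, 2 or 3 the last 2 had an adjusted p of 0.0536 by the exact permutation test. Before adjustment this was 0.0357, the smallest p that test can give with 1 PBS library left out. The following log2 values changed sign, in genes called neither in the reported fit nor under that setting. With library size alone these were Psma3 0.00, Psmb6 0.06, Psme1 0.08, Psmd10 0.11 and Psme4 0.00. With the length and GC trend removed they were Psma3 0.05, Psmc4 -0.17, Psmc5 -0.05, Psmd4 -0.18, Psmg1 -0.20, Psmg2 -0.07, Psmg4 -0.46 and Psme4 0.07. With the block they were Psmb6 0.02 and Psmd10 0.08, and without the globin libraries Psma3 0.05, Psme1 0.04, Psmd11 -0.05 and Psme4 0.01. Psmd4 was -0.01 with DESeq2 size factors and with DESeq2 and -0.00 with the 5 CPM filter and limma-trend, Psmd11 -0.01 with limma-trend, and Nfe2l1 0.07 with limma voom. Without each library in turn, the log2 value ranged over Psma3 -0.18 to 0.03, Psmb6 -0.13 to 0.07, Psme1 -0.12 to 0.01, Psmd4 -0.07 to 0.11, Psmd11 -0.02 to 0.10, Psmd10 -0.15 to 0.17, Psme4 -0.43 to 0.02, Nfe2l1 -0.63 to 0.05. The causes were not tested.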
